A study of Mus musculus with 2 samples.

Results

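The platelet-derived growth factor (PDGF) axis in culture-grown mouse lymph node fibroblastic reticular cells (FRCs) was described from 7 genes. They were the ligand genes Pdgfa, Pdgfb, Pdgfc and Pdgfd, the receptor genes Pdgfra and Pdgfrb, and the receptor-like gene Pdgfrl. The genes were taken by symbol from a fixed list, and all 7 of 7 had a probe set of their own among 19751 named genes. The study holds 2 microarrays of 1 group, named here replicate 2 and replicate 1 after the titles in the labels. Both come from untreated C57BL6/J mice aged 4 to 6 weeks, whose lymph node stromal cells were expanded in αMEM with 10% fetal calf serum for 7 to 10 days. The labels name no transgene, no second genotype and no added agent, and they leave unsaid if separate animals or dishes stand behind the replicates, whose spread may thus be technical. The source label calls the FRCs purified, while the growth protocol speaks of whole lymph node stroma, and how purification was done is not stated there.

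PDGFs are secreted dimers that act on mesenchymal cells through a pair of receptor tyrosine kinases. The alpha receptor binds the A, B and C chains and the beta receptor binds the B and D chains, and a bound receptor dimerises, phosphorylates its own tyrosines and recruits enzymes that drive migration, survival and division. Both receptors are widely used to recognise fibroblasts and pericytes, lymph node FRCs among them, and in blood vessels PDGF-B made by the endothelium attracts pericytes that carry the beta receptor. The A and B chains are cut by furin-type proteases before secretion, whereas the C and D chains leave the cell with a CUB domain that plasminogen activators and related proteases remove outside.

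Promoter sequence is shown for the 3 ligand genes found in the RefSeq promoter table. They were picked with the array values in view (Pdgfc 1.51-fold, Pdgfd 1.45-fold and Pdgfa 1.04-fold higher on replicate 2). A link of promoter sequence to these differences was not tested. Windows of 4 of the 7 genes were read, and Pdgfrb was left out by a filter on its chromosome. Each window below is the 250 bases before a transcript start on assembly GRCm38.p6, written 5′ to 3′ on the strand of the gene. Pdgfa has 2 starts in the table. Capitals mark matches, on either strand, to a GC box (GGGCGG, which reads CCGCCC on the other strand), the TATA box (spelled TATAAA), the CCAAT box (those letters), the AP-1 site (spelled TGANTCA) or the CArG box of serum response factor.
Pdgfa, start 1, chr5:138994282-138994531, minus strand: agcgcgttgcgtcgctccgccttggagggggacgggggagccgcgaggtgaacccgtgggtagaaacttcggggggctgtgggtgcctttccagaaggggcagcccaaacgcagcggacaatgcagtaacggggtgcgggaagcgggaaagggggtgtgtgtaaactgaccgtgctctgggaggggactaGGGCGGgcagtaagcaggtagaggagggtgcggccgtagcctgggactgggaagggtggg
Pdgfa, start 2, chr5:138994945-138995194, minus strand: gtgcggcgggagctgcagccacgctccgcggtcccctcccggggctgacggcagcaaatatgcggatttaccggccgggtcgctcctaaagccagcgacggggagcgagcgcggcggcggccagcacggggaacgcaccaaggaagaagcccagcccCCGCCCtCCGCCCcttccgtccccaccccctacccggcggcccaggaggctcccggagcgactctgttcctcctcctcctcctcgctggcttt
Pdgfc, chr3:81036166-81036415, plus strand: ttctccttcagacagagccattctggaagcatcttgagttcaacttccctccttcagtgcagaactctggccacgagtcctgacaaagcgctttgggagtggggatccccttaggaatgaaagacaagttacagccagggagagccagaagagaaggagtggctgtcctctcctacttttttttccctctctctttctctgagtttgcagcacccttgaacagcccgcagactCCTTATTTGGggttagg
Pdgfd, chr9:6168236-6168485, plus strand: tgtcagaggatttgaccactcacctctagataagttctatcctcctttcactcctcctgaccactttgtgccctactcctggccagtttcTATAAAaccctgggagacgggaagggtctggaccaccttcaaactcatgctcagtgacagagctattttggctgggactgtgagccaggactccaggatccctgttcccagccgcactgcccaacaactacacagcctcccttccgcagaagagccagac
The Pdgfc window held 1 CArG box, 8 to 17 bases before the start, and no match to the other 4 motifs. Of 32851 windows of the same length in the table, 1.47% held a CArG box. The Pdgfa windows held GC boxes only, 1 at start 1 and 2 at start 2, a motif found in 32.7% of all windows. The Pdgfd window held a TATA box alone, 155 to 160 bases before the start, and 12.4% of all windows held this motif. A CCAAT box and an AP-1 site, present in 33.8% and 6.75% of all windows, were in none of the windows printed here, and the Pdgfra window held no match to any of the 5 motifs. The G and C content was 66.4% and 72.4% in the Pdgfa windows, 50.8% in that of Pdgfc, 53.6% in that of Pdgfd and 54.4% in that of Pdgfra, against a median of 52.4% over all windows. No match overlapped another. The matches describe letters in these windows and say nothing on binding.

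Signal was judged against a background limit, the 95th percentile of 1035 olfactory receptor probe sets, genes that a fibroblast is not known to use. The limit was 7.17 on replicate 2 and 7.15 on replicate 1 on the log2 intensity scale. A stricter limit from 35 probe sets of tissue-restricted genes (of liver, retina, testis, pancreas and others) was 8.18 on replicate 2 and 8.09 on replicate 1. Of the 7 PDGF genes, 6 were above the first limit on both arrays and 5 above the stricter one on both, where 67.3% and 49.8% of all named genes were. Because 45.7% of 35 tissue-restricted genes passed the first limit themselves, a gene between the limits cannot be counted firmly as transcribed. Levels of different genes were not ranked, since probes bind with different strength. All values are RNA signals of a whole culture, in which fewer cells of a type and less RNA per cell cannot be told apart.

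Both signalling receptors gave strong signal. Pdgfrb, the receptor of the B and D chains, had an intensity of 8852 on replicate 2 and 7166 on replicate 1, which is 12.96 ± 0.22 on the log2 scale (mean ± SD, n = 2 arrays, as for all levels below). It stood 61.3 times over the first limit on replicate 2 and 50.4 times on replicate 1. Pdgfra, the receptor of the A, B and C chains, had 3931 on replicate 2 and 3659.9 on replicate 1, or 11.89 ± 0.07. Its signal was 27.2 times the limit on replicate 2 and 25.8 times on replicate 1. Both receptor genes thus passed both limits on both arrays with a wide margin.

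Pdgfrl encodes a secreted protein that resembles the outer part of a PDGF receptor and has no kinase domain. It had an intensity of 211 on replicate 2 and 135 on replicate 1, or 7.40 ± 0.45. It passed the first limit on replicate 2 alone, lay 0.07 log2 units below it on replicate 1, and was below the stricter limit on both arrays. It was the only one of the 7 genes that failed the first limit on an array.

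Of the 4 ligand genes, all were above the first limit on both arrays, and 3 were above the stricter one on both arrays. Pdgfa, which encodes the A chain, a ligand of the alpha receptor, had 4319 on replicate 2 and 4170 on replicate 1, or 12.05 ± 0.04. It had the smallest spread of the 7 genes, and its signal was 29.9 times the first limit on replicate 2 and 29.3 times on replicate 1. Pdgfc, which encodes a CUB-domain ligand of the alpha receptor, had 2552 on replicate 2 and 1687 on replicate 1, or 11.02 ± 0.42. It was 17.7 times the limit on replicate 2 and 11.9 times on replicate 1. Pdgfa and Pdgfc therefore passed both limits on both arrays, together with Pdgfra, the gene of the receptor that both chains bind.

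The remaining ligands, Pdgfd and Pdgfb, both bind the beta receptor. Pdgfd, which encodes the CUB-domain ligand of the beta receptor, had 628 on replicate 2 and 434 on replicate 1, or 9.03 ± 0.38. It was 4.35 times the first limit on replicate 2 and 3.06 times on replicate 1, and it passed the stricter limit on both arrays. Pdgfb, which encodes the B chain that binds both receptors, had 256 on replicate 2 and 311 on replicate 1, or 8.14 ± 0.20. It was above the first limit on each array, 1.77 times over it on replicate 2 and 2.19 times on replicate 1. Against the stricter limit it lay 0.18 log2 units below on replicate 2 and 0.19 above on replicate 1, so that its call there rested on which array was read.

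**Figure D1:**
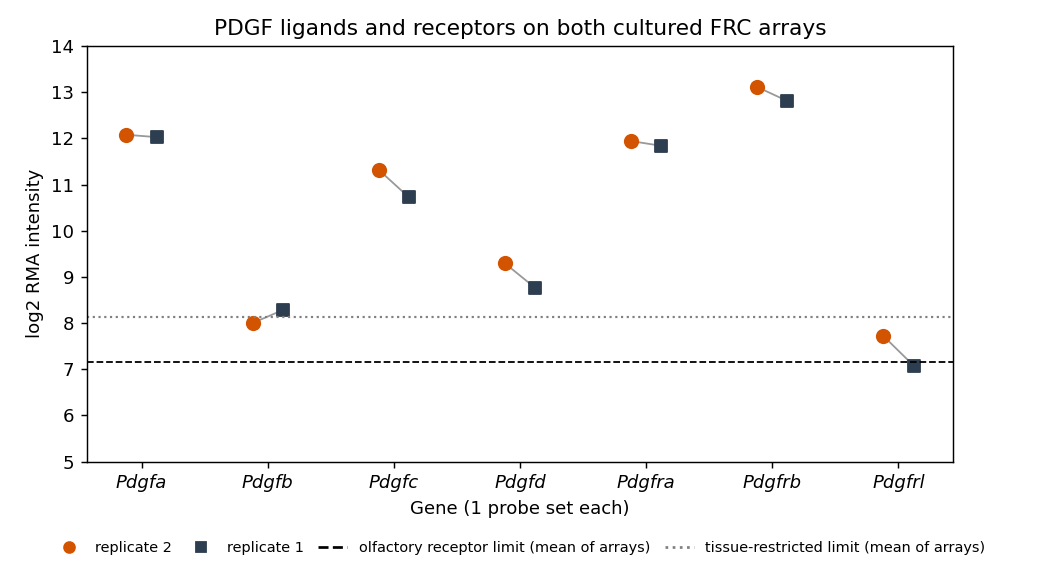
Log2 RMA intensity (vertical axis) of the 7 PDGF genes on each array, with replicate 2 as a circle and replicate 1 as a square, and the mean of each background limit over the arrays as a dashed or dotted line. Pdgfa, Pdgfra and Pdgfrb lie far above both lines, with the points of Pdgfa and Pdgfra closest together, Pdgfb straddles the upper line, and Pdgfrl (7.72 on replicate 2 and 7.08 on replicate 1) straddles the lower one. Heights of different genes are not comparable.

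Replicate 2 was next compared with replicate 1, with 1 array on each side, so no test was possible and no p-value is given. A difference is the log2 level on replicate 2 minus that on replicate 1. All 7 PDGF genes had a mean level above the mean limit, as did 13577 named genes in all. Of the 7 genes, 6 were higher on replicate 2 and 1, Pdgfb, was higher on replicate 1, where 51.2% of the 13577 genes were higher on replicate 2. The median difference was 0.30 over the PDGF genes and 0.0046 over all genes. The median size of the difference, without its sign, was likewise 0.30 for the PDGF genes against 0.11 for all genes.

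The arrays differed 1.5-fold or more in 2 of the 7 PDGF genes, Pdgfrl (1.56-fold) and Pdgfc (1.51-fold), both higher on replicate 2. Among all genes 4.77% differed that much, 2.87% in favour of replicate 2 and 1.91% in favour of replicate 1. For Pdgfrl the measured fold includes an array below the limit, and with that array set to its limit the fold was at least 1.49. Pdgfd was just short of the threshold at 1.45-fold higher on replicate 2. None of the 7 genes reached 2-fold, as 1.41% of all genes did. With 7 genes, a count of 2 is a description of these arrays.

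The receptor genes differed less than Pdgfc, Pdgfd and Pdgfrl. Pdgfrb was 1.24-fold higher on replicate 2, a difference that 14.7% of all genes exceeded in size. Pdgfra was 1.07-fold higher there, and 52.5% of genes had a larger difference, so this gene differed less than the median gene. The ratio of Pdgfrb to Pdgfra signal was accordingly 1.15-fold higher on replicate 2.

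Among the ligands, Pdgfc and Pdgfd had the largest differences and Pdgfa the smallest. The differences of Pdgfc (0.60) and Pdgfd (0.53) were exceeded in size by 4.58% and 5.77% of genes. Pdgfa (0.05) was within 1.04-fold between arrays, and 74.2% of genes differed more. Pdgfb (-0.28) was 1.22-fold higher on replicate 1, and 16.9% of genes differed more. The ratio of Pdgfc to Pdgfa was 1.46-fold and that of Pdgfd to Pdgfb 1.76-fold higher on replicate 2, while the ratio of Pdgfc to Pdgfd stayed within 1.05-fold. Each of these ratios rests on a single array per side.

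**Figure D2:**
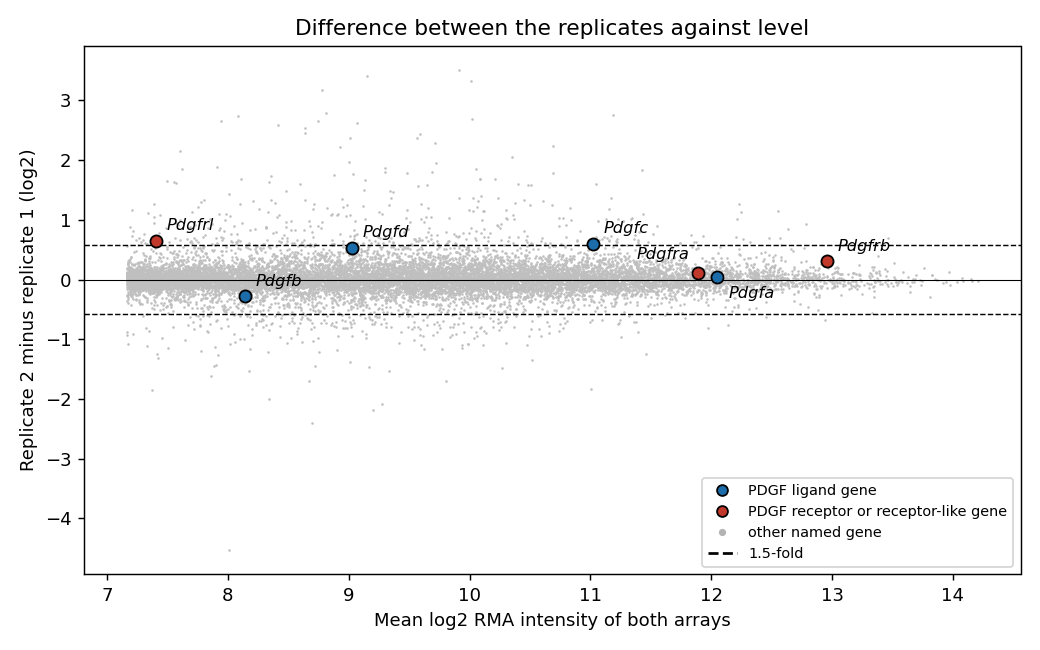
Replicate 2 minus replicate 1 (log2, vertical axis) against the mean log2 intensity of both arrays (horizontal axis) for the named genes above the mean limit, with ligand genes in blue, receptor and receptor-like genes in red, and dashed lines at 1.5-fold. Pdgfrl and Pdgfc lie just above the upper line and Pdgfd (0.53) just below it, while Pdgfa, Pdgfra and Pdgfrb lie closer to 0 and Pdgfb alone is negative.

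The proteases that cut PDGF chains were all above the first limit (7 of 7), and 5 passed the stricter one. The exceptions were Pcsk5 and St14, which encodes matriptase. Over all named genes, 67.3% passed the first limit and 49.8% the stricter one. Furin, which processes the A and B chains, was at 11.61 ± 0.06 and differed by -0.09. Plat, the tissue plasminogen activator that releases active PDGF-C, had log2 levels of 10.90 on replicate 2 and 9.82 on replicate 1, a 2.12-fold difference in the same direction as Pdgfc. Plau, the urokinase that can release active PDGF-D, had 11.00 on replicate 2 and 11.71 on replicate 1 and so was 1.63-fold higher on replicate 1, opposite to Pdgfd. The furin relative Pcsk6 differed by 2.39-fold in favour of replicate 2 (9.61 there and 8.35 on replicate 1). Thus 3 of the 7 proteases differed 1.5-fold, where 4.77% of all genes did. The 7 genes had a median difference of 0.09.

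All 12 binding proteins and co-receptors passed the first limit and 11 the stricter one, beside 67.3% and 49.8% of all named genes. The exception was A2m, the protease inhibitor alpha-2-macroglobulin, which binds PDGF-B. Cspg4, the NG2 proteoglycan that binds PDGF-AA and marks pericytes, was the only one of the 12 past 1.5-fold. It had 9.99 on replicate 2 and 9.28 on replicate 1 (1.63-fold). Among all genes 4.77% differed that much. The co-receptors Nrp1 (12.28 ± 0.05) and Lrp1 (12.75 ± 0.10) and the matrix protein Sparc (13.96 ± 0.08), which binds the B chain, differed by -0.07, 0.13 and 0.12. The median difference of the 12 genes was 0.03.

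Inside the cell, the receptors' adaptors and enzymes passed the first limit in 21 of 22 cases, and the same number passed the stricter one. Grb7 was the exception at 7.04 ± 0.01. Over all named genes the shares past these limits were 67.3% and 49.8%. Grb2, which links receptors to RAS, was at 9.22 ± 0.01, the phosphatase Ptpn11 at 11.82 ± 0.00, the PI3 kinase subunit Pik3r1 at 10.87 ± 0.28, Plcg1 at 10.29 ± 0.09 and Src at 10.50 ± 0.26. None of the 21 differed 1.5-fold, where 4.77% of all genes did, and their median difference was -0.02. Of 17 listed relay kinases, GTPases and STATs, 10 were measured and all 10 passed both limits, among them Akt1 at 12.59 ± 0.06, with a median difference of 0.02 and 0 genes past 1.5-fold. The other 7 were not analysed here.

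Genes that restrain receptor signalling were read next. Of 19 measured, all passed the first limit and 18 the stricter one (the exception was Cblc), beside 67.3% and 49.8% of all named genes. In this list 4 were higher on replicate 2 and 15 on replicate 1, where 51.2% of all genes were higher on replicate 2. The median difference was -0.14. Of the 19, 5 differed 1.5-fold, where 4.77% of all genes did. The MAPK phosphatase gene Dusp6, which is induced by ERK signalling, had 10.88 on replicate 2 and 11.60 on replicate 1. It was 1.65-fold higher on replicate 1, as were Spry4 (1.74-fold), Spry2 (1.63-fold) and Dusp5 (1.53-fold), which encode Sprouty inhibitors of the RAS pathway and another MAPK phosphatase. Spry1 went the other way, 1.59-fold higher on replicate 2. The ubiquitin ligase Cbl (11.25 ± 0.12) and the receptor phosphatases Ptpn1 (10.01 ± 0.10) and Ptpn2 (8.47 ± 0.07) differed by less than 1.5-fold.

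Early response genes, which serum and PDGF induce within minutes to hours in fibroblasts, all passed both limits (19 of 19). The shares over all named genes were 67.3% for the first limit and 49.8% for the stricter one. Of the 19, 5 were higher on replicate 2 and 14 on replicate 1, again where 51.2% of all genes were higher on replicate 2. The median difference was -0.12. Nr4a1 (1.77-fold) and Atf3 (1.60-fold) were the genes past 1.5-fold, both in favour of replicate 1, where 4.77% of all genes differed that much in either direction. Fos (8.52 ± 0.30), Egr1 (10.74 ± 0.02) and Myc (11.96 ± 0.18) differed by 0.42, -0.03 and -0.25. The brake and early response genes thus had median differences below 0 on arrays where the median PDGF gene was above 0. This sign was not particular to them. The adaptors and enzymes (-0.02) and 2 lists read below, the other class III receptor kinases with their ligands (-0.05) and the VEGF relatives (-0.13), shared it. A link between these lists was not tested.

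**Figure D3:**
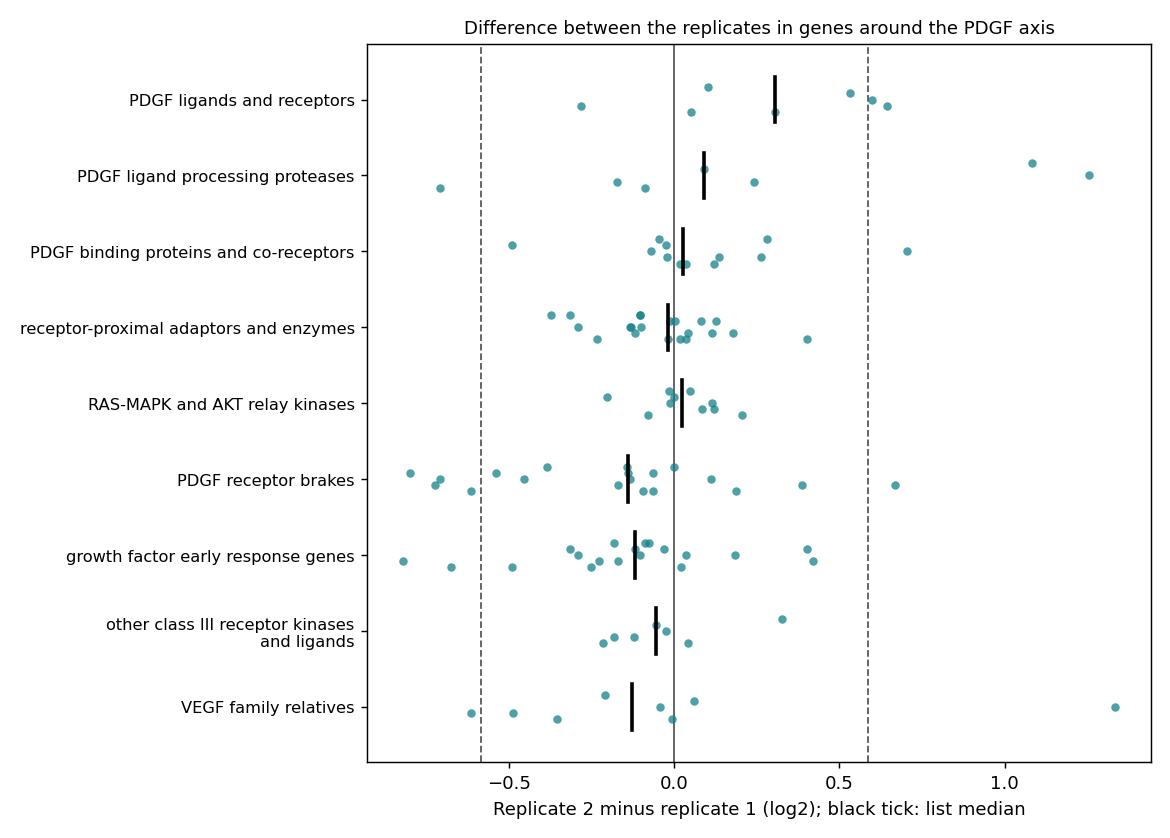
Replicate 2 minus replicate 1 (log2, horizontal axis) for each gene above the mean limit in 9 lists (rows), with the list median as a black tick and dashed lines at 1.5-fold. The median is 0.30 for the PDGF genes and lies between -0.14 and 0.09 for the other 8 lists, and the proteases, the receptor brakes and the VEGF relatives hold genes beyond both dashed lines.

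The nearest relatives of the PDGF genes were read in the same way. Of the other class III receptor tyrosine kinases, Kit (7.22 ± 0.03), Csf1r (7.60 ± 0.09) and Flt3 (7.23 ± 0.02) passed the first limit and none passed the stricter one, where Pdgfra and Pdgfrb passed both. The ligands of these receptors included Kitl (10.29 ± 0.13) and Csf1 (13.65 ± 0.15), which passed both limits. In the VEGF family, which shares its fold with the PDGFs, all 8 measured genes passed the first limit, and all but Kdr and Flt4 passed the stricter one. Of all named genes, 67.3% passed the first limit and 49.8% the stricter one. Of the 8 VEGF family genes, 2 were higher on replicate 2 and 6 on replicate 1, with a median difference of -0.13. Over all genes, 51.2% were higher on replicate 2. Vegfd had 11.11 on replicate 2 and 9.78 on replicate 1, a 2.52-fold difference against the direction of most of its list. Flt4, a receptor of VEGF-D, was 1.53-fold higher on replicate 1. No other gene of the family was past 1.5-fold, where 4.77% of all genes were.

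Other cells that carry or make PDGF could share the culture, so their markers were read beside the PDGF genes. The FRC and fibroblast markers passed the first limit in 13 of 15 cases, with Lum and Fap below it on both arrays, and Ccl21a, which shares a probe set with other genes, was not analysed here. Their summed intensity was 54494 on replicate 2 and 44629.8 on replicate 1. Of the 13 above the mean limit, 10 were higher on replicate 2 and 3 on replicate 1, where 51.2% of all genes were higher on replicate 2. Col3a1 (2.38-fold) and Col1a2 (1.61-fold) were past 1.5-fold in favour of replicate 2, and Il7 (1.89-fold) in favour of replicate 1. Among all genes 4.77% differed that much in either direction. Pericyte and smooth muscle markers passed in 10 of 13 cases, with Abcc9, Angpt1 and Higd1b below on both arrays, and their sum was 44877 on replicate 2 and 43235 on replicate 1. Of the 10 pericyte and smooth muscle markers above the mean limit, 7 were higher on replicate 2 and 3 on replicate 1. Past 1.5-fold were 3 of the 10, all higher on replicate 2. They were Rgs5 (9.91 on replicate 2 and 7.37 on replicate 1, 5.81-fold), Des (10.11 on replicate 2 and 9.09 on replicate 1, 2.03-fold) and Cspg4 (1.63-fold). Mcam, Acta2 and Tagln were higher on replicate 1 by 1.09-fold, 1.03-fold and 1.10-fold. The stricter limit was passed by 11 of the 15 FRC and fibroblast markers and 8 of the 13 pericyte and smooth muscle markers. Of all named genes, 67.3% passed the first limit and 49.8% the stricter one. The part of these cells in the PDGF differences was not tested.

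Endothelial cells are a known source of Pdgfb. Of 14 endothelial markers, 7 passed the first limit and 1, Egfl7, the stricter one, and the summed intensity was 2433 on replicate 2 and 2415 on replicate 1. Pecam1 (7.13 on replicate 2 and 7.22 on replicate 1) lay at the limit, and Cdh5 (7.53 on replicate 2 and 8.05 on replicate 1) passed only the first. Of the 10 endothelial markers above the mean limit, 4 were higher on replicate 2 and 6 on replicate 1. Past 1.5-fold were 3 of the 10, where 4.77% of all genes were. Emcn (8.40 on replicate 2 and 7.64 on replicate 1) and Tek (7.68 on replicate 2 and 6.93 on replicate 1) were higher on replicate 2. Flt4 (7.79 on replicate 2 and 8.41 on replicate 1) was higher on replicate 1. The platelet and megakaryocyte markers passed in 4 of 6 cases, with Pf4 at 5.93 ± 0.00 below the limit, and summed to 1137 on replicate 2 and 1187 on replicate 1. Macrophage and leukocyte markers passed in 3 of 11 cases, with Ptprc at 6.44 ± 0.04 below the limit, and summed to 1780.4 on replicate 2 and 1635 on replicate 1. Lyz2 had 8.43 on replicate 2 and 7.12 on replicate 1 (2.46-fold), and it passed the first limit on replicate 2 alone. Of the 4 leukocyte markers above the mean limit, 2 were higher on replicate 2 and 2 on replicate 1, and only Lyz2 was past 1.5-fold. Neural and Schwann markers passed in 3 of 6 cases and epithelial markers in 5 of 8. The stricter limit was passed by 1 platelet marker (Treml1), 1 leukocyte marker (Cd68), 2 epithelial markers (Krt8 and Krt19) and 0 neural and Schwann markers. These counts stand beside 67.3% of all named genes past the first limit and 49.8% past the stricter one.

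**Figure D4:**
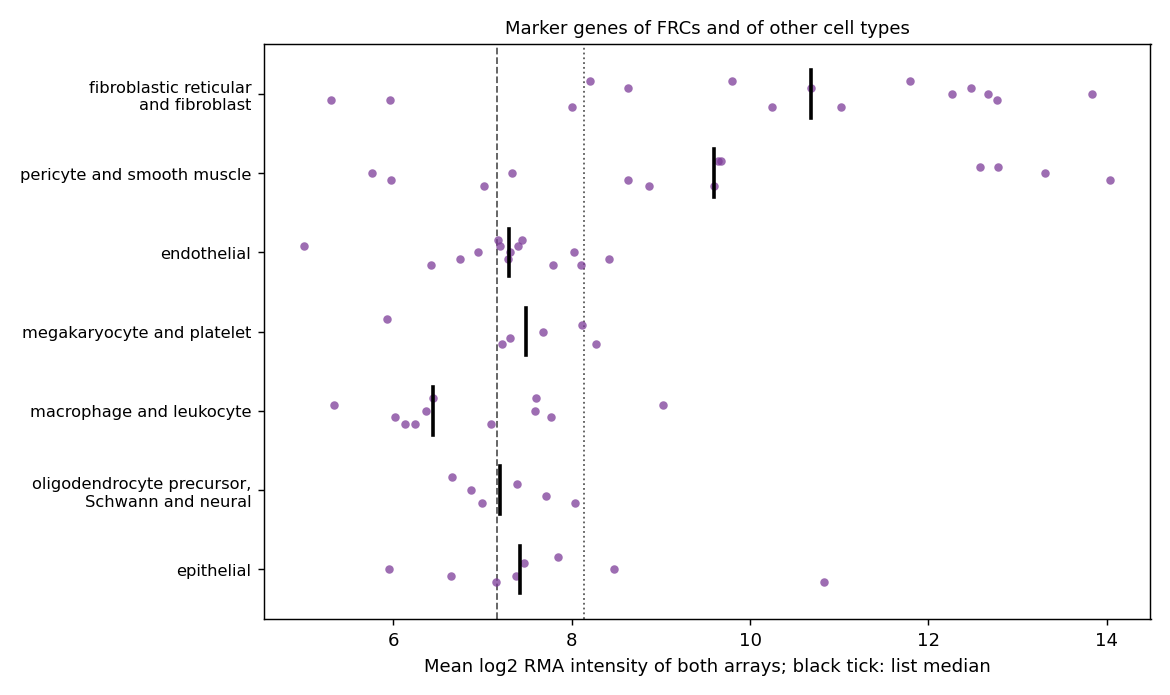
Mean log2 RMA intensity of both arrays (horizontal axis) for marker genes of 7 cell classes (rows), with the list median as a black tick, the first limit as a dashed line and the stricter limit as a dotted one. The FRC and fibroblast markers and the pericyte and smooth muscle markers reach far to the right of both lines, and the medians of the other 5 classes lie to the left of the dotted line.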

How the data were processed

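RNA of cultured FRCs, 1 group, was hybridised to 2 microarrays. Each probe set has 1 deposited intensity on each array, not in logs, which the authors made by robust multi-array averaging (RMA), per the submitters' processing notes, with no version named. RMA evens out the arrays' distributions and compresses differences at low signal. Log2 intensities were computed here with Python 3.11.15 and pandas 2.3.3. Of 24679 probe sets, 3325 with several genes or none in the platform annotation were left out, and probe sets of a gene were averaged. Gene identifiers were looked up in a RefSeq table of assembly GRCm38.p6, for names. No build is stated for the array, so coordinates are given only for the promoter windows, which come from RefSeq on that assembly.

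With 1 group and 2 arrays, which set the precision, no significance test was run. The members and gene lists were chosen with earlier results of these data known. Named besides the members are, in the pathway lists, a fixed set of genes, the genes on the smaller side of a limit where 5 or fewer, and those past 1.5-fold. The cell type markers lie outside this rule, and those named were picked with their values in view. Alternatives comprised other limits, other probe set rules, each array alone, quantile normalisation, removal of a loess trend, other filters and a pseudocount of 16. The step that counts fold differences was checked on simulated data.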

Additional observations from a re-analysis of the deposited data

How the results depend on the processing

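The number of PDGF genes above the limit, 6, lay between 5 and 7 under all 8 alternatives: it was 7 with the 90th percentile, with the mean of the arrays or without replicate 1, 5 with the stricter limit, and 6 otherwise, also without replicate 2. The probe set rules could not change any count of the 7 genes, since each has 1 probe set. The number that differed 1.5-fold between the arrays, 2, was 0 at 2-fold. It was 1 with quantile normalisation, which left Pdgfrl past the threshold and Pdgfc (0.57 on the log2 scale) short of it. It was 1 with the filter at the stricter limit, which removes Pdgfrl, and 1 with arrays below the limit set to it, an alternative chosen after seeing the data. The differences of the 7 genes moved by less than the spread between the arrays in all 28 cases and kept their sign. This is a weak check, since that spread is computed from the same difference. Of the 7, only Pdgfrl could change with arrays below the limit set to it. No level of the 7 moved by more than the spread with quantile normalisation. Quantile normalisation gave the PDGF genes a median difference of 0.31 and removal of the loess trend 0.32. Of the other lists' counts, 230 stayed within 1.5 times and 25 did not. No paired analysis was possible because there is 1 group. The number of arrays, 2, limits what can be said of any difference, and Pdgfb and Pdgfrl lie near background.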
